A study of Mus musculus with 24 samples.

Results

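The genes described here carry glucose into cells of the mouse brain and break it down to lactate. They are 10 gene symbols chosen by name: Slc2a1, Hk1, Pfkp, Aldoa, Gapdh, Pgk1, Pgam1, Eno2, Pkm and Ldha. They were picked with results of these data known, because Ldha was lower in mutants in all 3 genotype comparisons, so the genotype differences of these 10 genes are given as a description and carry no test. In the deposited gene tables they take up 11 of 54532 rows, since 2 rows bear the symbol Aldoa. Both Aldoa rows are counted below, and all 11 rows passed the filter on low counts in every comparison.

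The libraries hold polyadenylated RNA of C57BL/6J mice with a mutation of Polr3a, the gene for the largest subunit of RNA polymerase III, and of wild types. All mice, wild types included, received tamoxifen at postnatal day 28 (P28), which triggers recombination in the mutants. The 6 groups of 4 libraries are mutant and wild type cerebrum at P42 (14 days after tamoxifen, 2 males and 2 females in each), mutant cerebellum at P42 (2 males and 2 females), wild type cerebellum at P42 (3 males and 1 female), and mutant and wild type cerebrum at P75 (47 days after tamoxifen, males only). The labels name neither the recombinase nor the cells that express it. They do not say that each library came from its own mouse, so p-values measure the spread between libraries, which may be technical in part. The P42 groups each hold both sexes, so the libraries of such a group did not all come from the same mouse. At P75, with males only, the labels leave this open. Pairs of libraries within a group differed by more than sampling of counts gives, with a chi-square per degree of freedom of 3.97 to 108. Library totals ran from 13832721 to 23175864 counts. Polr3a itself did not tell the genotypes apart, with adjusted p-values in edgeR's quasi-likelihood test of 0.562 in P42 cerebrum, 0.984 in cerebellum and 0.542 in P75 cerebrum. Markers of cerebral cortex and striatum and markers of cerebellum followed the tissue labels in wild types, where 7 of 8 were higher in cerebrum and 8 of 8 were lower there than in cerebellum.

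Glycolysis turns glucose into pyruvate in the cytosol, and lactate dehydrogenase converts pyruvate to lactate and back. The adult brain lives mainly on glucose, which crosses the blood-brain barrier through the transporter encoded by Slc2a1 and enters neurons mostly through that of Slc2a3. Most steps are shared out among isoenzymes that differ between cell types: Aldoc is a classical astrocyte gene, Eno2 is the neuronal enolase, and the subunits of Ldha and Ldhb assemble into tetramers, of which Ldha-rich forms are associated with lactate production and Ldhb-rich forms with lactate use.

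Levels are CPM, counts per 1000000 of the library total, with library totals scaled by TMM, and levels of different genes are compared only per kilobase of the gene model. In wild type cerebrum at P42 the order of the mean level per kilobase was Aldoa, the main aldolase, at 434 ± 94.0 CPM per kilobase (SD, n = 4), then Pkm at 197 ± 20.5, Eno2 at 161 ± 19.5, Pgam1 at 143 ± 5.92, Pgk1 at 115 ± 22.8, Ldha at 66.9 ± 16, Slc2a1 at 44.0 ± 8.34, Hk1 at 40.7 ± 5.30, Pfkp at 27.5 ± 1.74 and Gapdh at 3.16 ± 0.62 CPM per kilobase. The ranges of 1 SD to each side overlapped between neighbours from Pkm to Pgk1 and from Ldha to Hk1. The second Aldoa row, a separate gene model just upstream of the first (chr7:126800790-126809108 on mm10), had 1.42 ± 0.60 CPM per kilobase. Per kilobase, wild type cerebellum had less Ldha (37.7 ± 4.11) than Slc2a1 (50.0 ± 3.86), whereas in wild type cerebrum at P75 Ldha (79.0 ± 2.51) stood above Slc2a1 (37.2 ± 2.86). The place of Pfkp near the bottom rests on a gene model of 13401 bases.

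**Figure D1:**
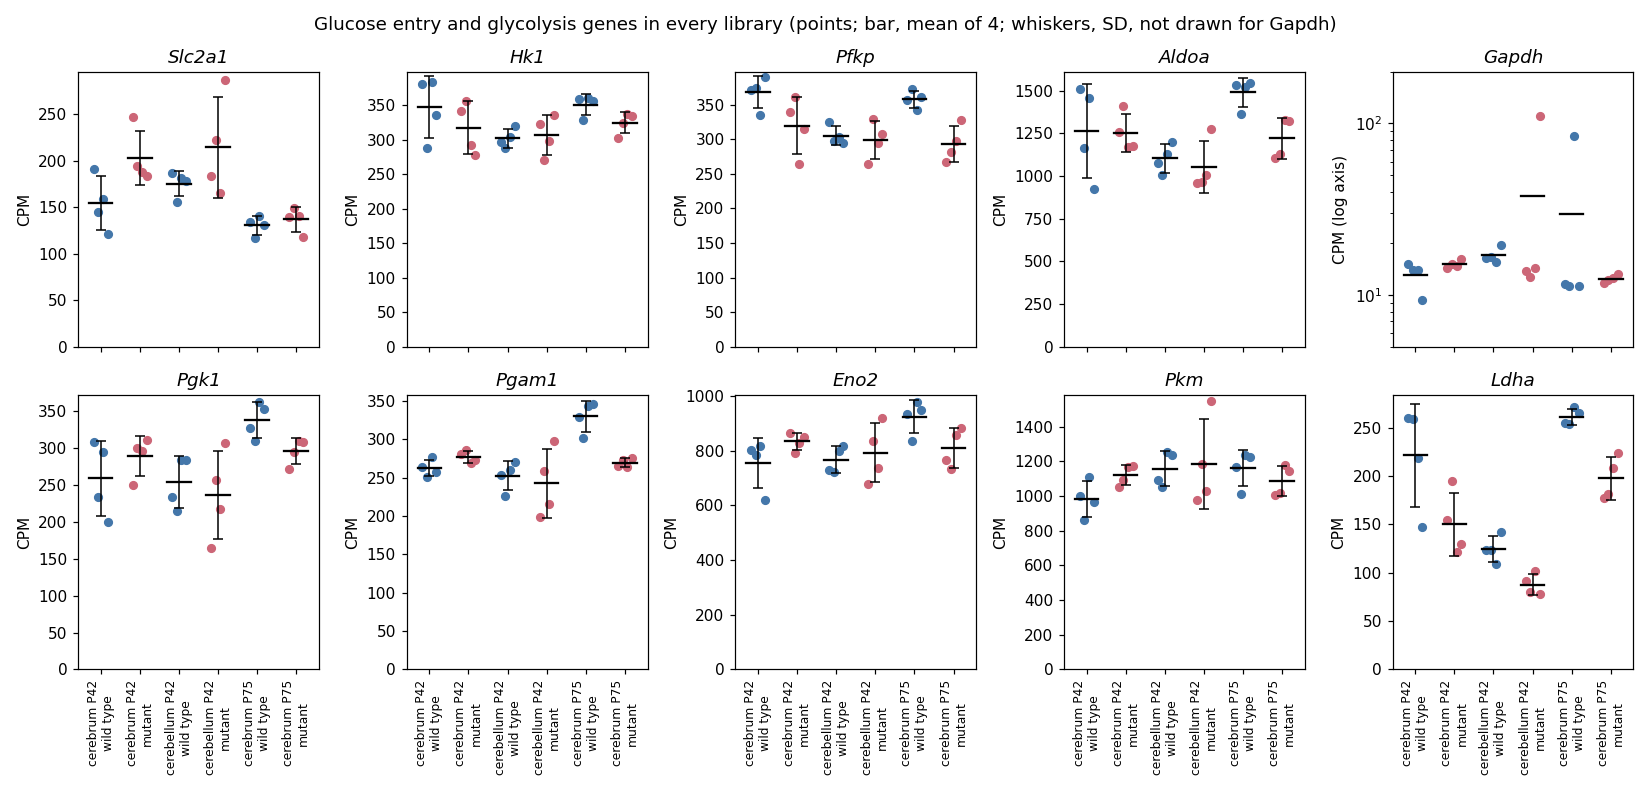
CPM of the 10 genes in each library (points; blue, wild type; red, mutant) by group, with the mean of 4 as a bar and the SD as whiskers; the Gapdh axis is logarithmic and has no whiskers. Ldha is the gene whose 4 mutants sit below the 4 wild types both in cerebellum at P42 and in cerebrum at P75, and Gapdh has 2 libraries, at 84.0 and 110 CPM, far above all others.

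Ldha encodes the A subunit of lactate dehydrogenase (chr7:46841475-46855627, mm10). In cerebrum at P75 it had 177, 181, 208 and 224 CPM in mutants 1 to 4 and 255, 254, 272 and 265 CPM in wild types 1 to 4. Every mutant lay below every wild type, and the wild types lay close together. The log2 fold change (mutant over wild type) was -0.40 ± 0.08 (SE), a level 1.32-fold lower. In cerebellum at P42 it had 91.0, 80.4, 101 and 77.5 CPM in mutants and 124, 123, 109 and 142 CPM in wild types. The groups again did not overlap, with a log2 fold change of -0.53 ± 0.13. In cerebrum at P42 the mutants had 155, 195, 121 and 130 CPM and the wild types 260, 259, 219 and 147 CPM. Here wild type 4 fell among the mutants, and the log2 fold change was -0.55 ± 0.22. Leaving out each library in turn kept the difference negative in each of the 3 comparisons. The sign of Ldha was part of the choice, so this describes the values and tests nothing. A fit with a tissue marker level as a covariate, given below, turned the P42 cerebrum value positive.

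The promoters of Ldha and of 3 other enzyme genes are shown because 2 sequence motifs tied to the regulation of glycolysis can be read in some of them. ACGTG is a core of the element bound by hypoxia-inducible factor, and CACGTG is the E-box bound by basic helix-loop-helix factors such as Myc and Usf1. The sequences are the 250 bases before a transcript start in RefSeq (GRCm38.p6), for Ldha the first of 2 starts listed, read 5′ to 3′ on the gene's strand: chr7:46845554-46845803 (plus) for Ldha, chr19:41911621-41911870 (plus) for Pgam1, chr6:124769674-124769923 (minus) for Eno2 and chr6:82774455-82774704 (minus) for Hk2. Capitals mark ACGTG on either strand, so CACGT is the motif on the other strand and CACGTG holds it on both.
Ldha: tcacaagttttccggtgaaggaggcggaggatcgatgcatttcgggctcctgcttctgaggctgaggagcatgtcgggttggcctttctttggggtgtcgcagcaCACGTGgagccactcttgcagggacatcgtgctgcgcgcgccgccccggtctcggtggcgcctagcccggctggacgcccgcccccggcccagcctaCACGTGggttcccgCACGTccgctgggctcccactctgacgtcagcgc
Pgam1: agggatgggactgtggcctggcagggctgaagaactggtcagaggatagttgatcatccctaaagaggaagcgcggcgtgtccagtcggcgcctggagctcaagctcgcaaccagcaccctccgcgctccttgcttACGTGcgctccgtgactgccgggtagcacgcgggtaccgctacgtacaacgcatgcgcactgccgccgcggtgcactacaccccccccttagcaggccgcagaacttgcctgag
Eno2: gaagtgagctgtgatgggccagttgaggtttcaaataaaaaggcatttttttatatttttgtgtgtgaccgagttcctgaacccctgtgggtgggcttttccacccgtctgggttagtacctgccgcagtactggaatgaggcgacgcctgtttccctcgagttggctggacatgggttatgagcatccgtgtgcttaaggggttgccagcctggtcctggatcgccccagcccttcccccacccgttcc
Hk2: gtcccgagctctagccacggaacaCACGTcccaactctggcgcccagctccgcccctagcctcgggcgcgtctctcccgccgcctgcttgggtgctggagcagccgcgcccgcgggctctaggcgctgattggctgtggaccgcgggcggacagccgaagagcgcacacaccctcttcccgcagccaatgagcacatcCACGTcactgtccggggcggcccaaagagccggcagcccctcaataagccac

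ACGTG occurred at 3 places of the printed Ldha window, 2 of them within CACGTG, at 1 place in Pgam1, at 2 places in Hk2 and at none in Eno2. The window of the second Ldha start held none. The motif was present before at least 1 start of 6 of the 10 genes, in 7 of their 15 windows, against 16.6% of all 32851 RefSeq promoter windows of the same length. CACGTG was found in 1 of the 15 windows, that of Ldha, and in 6.02% of all windows. The GC-rich letters GGGCGG, a core of the Sp1 site, were found in 7 of the 15 windows and in 32.7% of all windows, and GCGTG, another core of the hypoxia element, in 6 of the 15 and in 28.2%. Windows of one gene can overlap, as those of 2 Aldoa starts do. Motifs overlap in places, all were searched on both strands, and the GC content of the 15 windows ran from 49.6% to 67.6%, so these matches describe letters and not binding.

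In cerebrum at P75, 9 of the 11 rows had a negative log2 fold change, with a median of -0.19 against 0.00 over all genes tested. Past an adjusted p of 0.05 were 4 rows, Ldha, Pgam1, Pfkp and Aldoa, all lower, where 14.3% of all genes were past it, 7.66% higher and 6.62% lower. The mutants of the same 4 genes lay below all wild types, a pattern of separated groups that 20.0% of all genes showed in one direction or the other. As the choice of the genes used this comparison, nothing is read from these counts.

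The entry and committed steps of the pathway are given first. Slc2a1, the blood-brain barrier glucose transporter (chr4:119108711-119137983), had 139, 149, 140 and 118 CPM in mutants and 134, 117, 140 and 131 CPM in wild types. The groups overlapped, with a log2 fold change of 0.07 ± 0.08. Hk1, the hexokinase that traps glucose as glucose 6-phosphate in brain, had 303 to 337 CPM in mutants and 328 to 360 CPM in wild types, and the groups overlapped too. Pfkp, the platelet-type phosphofructokinase of the committed step (chr13:6579768-6648777), had 268, 282, 298 and 328 CPM in mutants and 358, 372, 342 and 361 CPM in wild types. All mutants were lower, with a log2 fold change of -0.29 ± 0.07.

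Of the enzymes further down, Aldoa, which splits fructose 1,6-bisphosphate (chr7:126795234-126800751), had 1103, 1132, 1328 and 1320 CPM in P75 mutants and 1532, 1363, 1524 and 1545 CPM in wild types. All mutants were lower, by -0.29 ± 0.08 on the log2 scale. Pgam1, the phosphoglycerate mutase of brain (chr19:41911871-41918664), had 266, 273, 263 and 276 CPM in mutants and 329, 302, 344 and 346 CPM in wild types, again with no overlap and a log2 fold change of -0.29 ± 0.07. Pgk1 (-0.19 ± 0.07), which makes ATP from 1,3-bisphosphoglycerate, Eno2 (-0.19 ± 0.08), the neuronal enolase, and Pkm (-0.09 ± 0.08), the pyruvate kinase of brain, had lower means, but mutant and wild type libraries overlapped. The second Aldoa row had a higher mean in mutants, 1.92 ± 0.22 against 1.21 ± 0.44 CPM, with overlapping libraries.

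Scaling and cell makeup both moved with these P75 values, and the counts of calls that follow are descriptions too, from which nothing is read. Scaled by library size alone, the median of all genes shifted to 0.11, calls over all genes went from 46.4% lower to 19.1% lower, and 1 of the 11 rows, Ldha, was called. The median of the 11 rows was then -0.09. Without mutant replicate 1, mutant replicate 2 or wild type replicate 4, 2 rows were called, Ldha and Pgam1. Markers of cortical and hippocampal excitatory neurons summed to 2671 to 3885 CPM in mutants and 4580 to 4993 CPM in wild types. Of these 8 markers 7 passed the test, all lower, and none was at 0. Microglia markers summed to 386 to 708 against 321 to 354 CPM (4 of 9 higher), endothelial markers to 456 to 503 against 368 to 382 CPM (6 of 12 higher), and mitochondrially encoded transcripts to 24652 to 32309 against 39559 to 52038 CPM (11 of 13 lower). In bulk tissue fewer cells of a type and less RNA per cell cannot be told apart, and the part of these shifts in the enzyme values was not tested. Slc2a1, which endothelial cells express strongly, overlapped between genotypes while the endothelial sum did not.

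**Figure D2:**
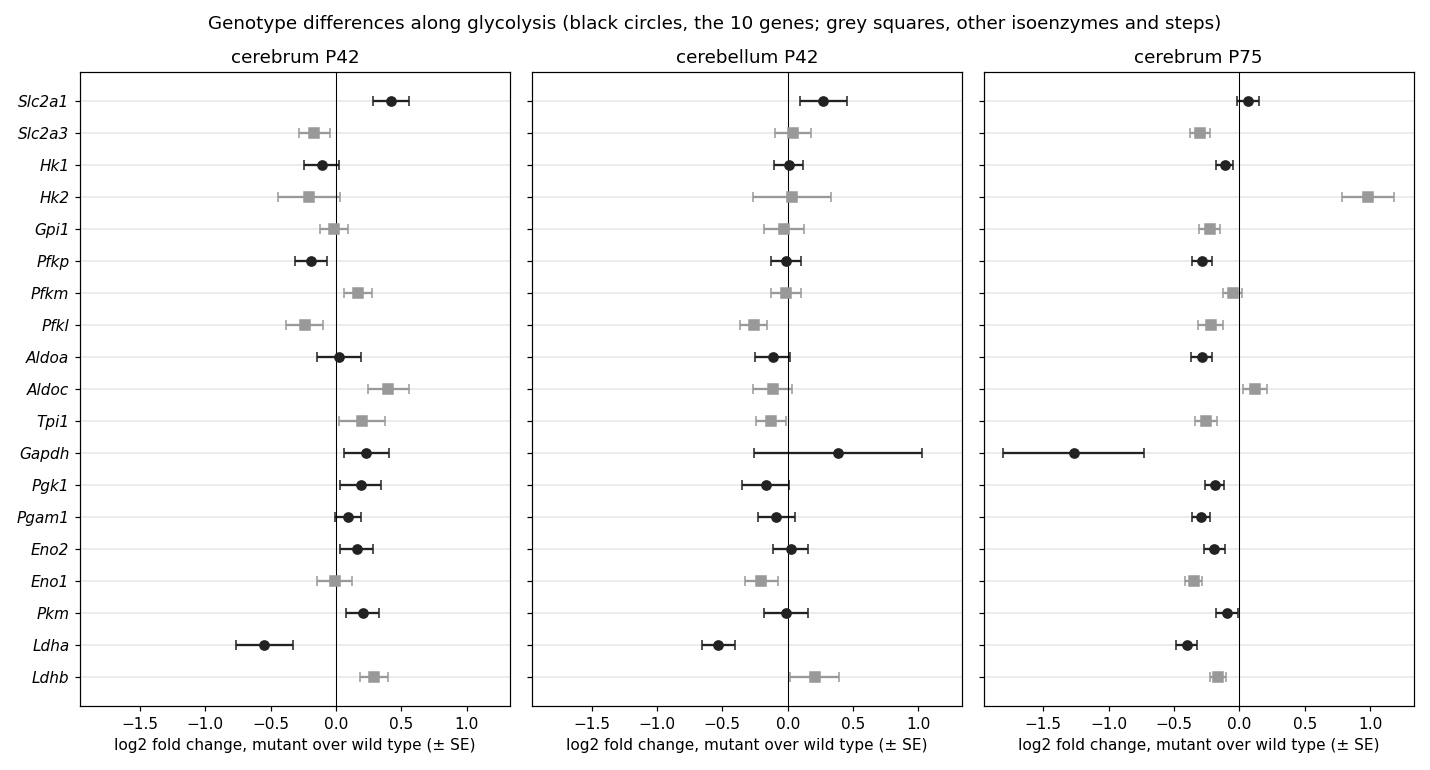
Log2 fold change of mutant over wild type (x axis, with SE) along the pathway from transporters at the top to lactate dehydrogenase at the bottom, in the 3 genotype comparisons; black circles are the 10 genes and grey squares other isoenzymes and steps. Ldha is below 0 in all 3 panels, most steps are below 0 in cerebrum at P75, Hk2 stands apart at 0.98, and the wide bars of Gapdh come from single libraries.

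In cerebrum at P42 none of the 11 rows was past the threshold, where 0.0165% of all genes were, and none was free of overlap, where 6.38% of all genes were. Their median log2 fold change was 0.09 against 0.01 over all genes, and 8 of 11 were positive. Slc2a1 had 247, 195, 188 and 183 CPM in mutants and 191, 145, 158 and 121 CPM in wild types. Only wild type 1 reached the mutants, and the log2 fold change was 0.42 ± 0.13. Endothelial markers summed to 397 to 470 CPM in these mutants and 387 to 479 CPM in wild types. Hk1 (-0.11 ± 0.14) and Pfkp (-0.19 ± 0.12) had negative values beside Ldha, while Aldoa (0.02 ± 0.16), Pgk1 (0.19 ± 0.16), Pgam1 (0.09 ± 0.10), Eno2 (0.16 ± 0.12) and Pkm (0.20 ± 0.12) did not.

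The P42 cerebrum groups also differed in tissue makeup. Markers of thalamus and hypothalamus summed to 653 to 1179 CPM in mutants and 131 to 372 CPM in wild types, with all 12 positive, 7 free of overlap and none at 0 throughout a group. Mutants 3 and 4, with the highest sums, had the lowest Ldha of the group. The same mutants had the lowest sums of excitatory neuron markers, 967 and 1312 CPM, where the other 6 libraries had 3378 to 6733 CPM (8 of 8 markers negative, none at 0). Their oligodendrocyte sums were the highest, 12375 and 12187 CPM against 6157 to 9271 CPM in the others. Microglia markers summed to 220 to 240 CPM in mutants and 281 to 331 CPM in wild types (9 of 9 negative). The part of these other markers in the Ldha value was not tested. Without mutants 3 and 4 the log2 fold change of Ldha was -0.33. With the thalamus and hypothalamus marker level as a covariate, an alternative added after the data were seen, it turned to 0.28 ± 0.40. That of Slc2a1 then went to 0.80 ± 0.27. Since the marker sums of the genotypes do not overlap, marker level and genotype cannot be told apart in these 8 libraries.

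**Figure D3:**
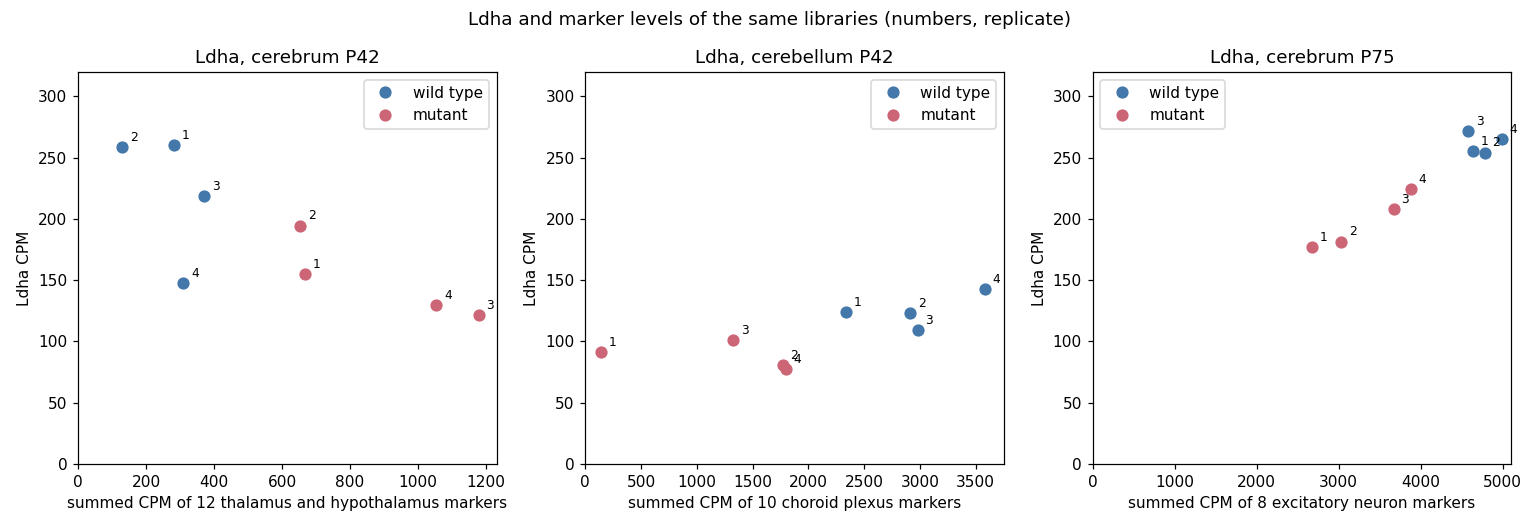
Ldha level in CPM (y axis) against the summed CPM of a marker list (x axis) in the 8 libraries of each comparison, numbered by replicate: thalamus and hypothalamus markers in cerebrum at P42, choroid plexus markers in cerebellum at P42 and excitatory neuron markers in cerebrum at P75. In each panel the marker sums of mutants and wild types do not overlap, as with 653 to 1179 against 131 to 372 CPM on the left.

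In cerebellum at P42 none of the 11 rows was past the threshold, where 0.0114% of all genes were. Ldha was the 1 row without overlap, where 3.34% of all genes had none. The median log2 fold change was -0.01 against 0.01 over all genes. Slc2a1 had 183, 222, 165 and 287 CPM in mutants and 187, 156, 181 and 178 CPM in wild types, so mutants were spread to both sides of the wild types (0.27 ± 0.18). Without mutant 4, its value was 0.14. Hk1, Pfkp, Aldoa, Pgk1, Pgam1, Eno2 and Pkm lay between -0.17 and 0.02 on the log2 scale, with SE of 0.11 to 0.18. Choroid plexus markers summed to 140 to 1799 CPM in mutants and 2337 to 3582 CPM in wild types (10 of 10 negative, none at 0). Mutants 2 and 4, with the lowest Ldha, also stood apart in their cerebellum markers, at 2759 and 1592 CPM against 3415 to 5995 CPM in the other 6 libraries, and in their oligodendrocyte markers, at 15813 and 14895 CPM against 6162 to 13443 CPM. Without both, an alternative added after the data were seen, the log2 fold change of Ldha was -0.41 ± 0.11. That of Slc2a1 was then 0.02 ± 0.12, that of Pgk1 -0.47 ± 0.14 and that of Pgam1 -0.30 ± 0.12, and the median of the 11 rows was -0.18. The part of these markers in the values was not tested.

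Gapdh, the glyceraldehyde 3-phosphate dehydrogenase gene (chr6:125161715-125166467), is one of the most abundant transcripts of brain, yet it was listed at 9.34 to 19.4 CPM in 22 libraries. The other libraries had 84.0 CPM (wild type cerebrum at P75, replicate 3) and 110 CPM (mutant cerebellum, replicate 4). Those were 7.23 and 7.62 times the next highest value in their group. In the P75 library it was the gene that stood out most among 12240, and 2 genes exceeded 2-fold. In the cerebellar library it ranked 2 of 12160, and 57 genes exceeded 2-fold. In the GENCODE M21 annotation, 89 pseudogenes match Gapdh transcripts over at least 200 bases at 95% identity or more, against 0 to 5 for the other 9 genes. Those 89 summed to 27.7 to 89.7 CPM per library, with a median of 38.0 CPM, above Gapdh itself in 22 libraries. How the counting treated reads with several matches is not given in the sources used here, so the Gapdh level is uncertain. Its P75 log2 fold change of -1.27 ± 0.54 turned to 0.12 without wild type 3, and its cerebellar one of 0.38 ± 0.64 turned to -0.32 without mutant 4.

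Whether the genotype effect itself differed was tested with interaction terms. Between tissues at P42 no gene of 19614 passed (0% of all genes, with 1213 at an unadjusted p under 0.05 and 8 called by DESeq2), and none of the 11 rows did, with 0 of 11 at an unadjusted p under 0.05. Between ages in cerebrum 1.36% of all genes passed and none of the 11 rows did. At an unadjusted p under 0.05 were 4 of the 11 rows and 2713 of 19273 genes. The nearest was Pgam1, one of the 10 genes, so its values are a description. Its difference was -0.38 ± 0.11 (P75 minus P42), not called by edgeR. DESeq2 called it, and edgeR did so in 1 of 16 fits that left out a library (P42 mutant 1). Nothing is read from these calls. Among other enzymes Ldhb, the B subunit of lactate dehydrogenase, had -0.45 ± 0.11 (edgeR adjusted p = 0.0507) and Hk2 1.19 ± 0.31 (edgeR adjusted p = 0.0685), both called by DESeq2. For Ldha, whose sign in each comparison was part of the choice, the differences are given with no test: -0.04 ± 0.26 between tissues and 0.15 ± 0.24 between ages. Marker lists moved in the same age fit. All 12 thalamus and hypothalamus markers were negative (4 called, median -1.88), as were all 10 oligodendrocyte markers (2 called, median -0.64). All 9 microglia markers were positive (5 called, median 1.03). The part of these shifts in the enzyme values was not tested, and the P75 libraries were all male.

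The contrast of tissues in wild types at P42 was not used to choose the genes. Of the 11 rows, 1 passed, where 30.5% of all genes did, 16.4% higher in cerebrum and 14.1% lower. It was Ldha, at 221 ± 53.0 CPM in cerebrum and 125 ± 13.6 CPM in cerebellum, a log2 fold change of 0.84 ± 0.19 (edgeR adjusted p = 0.00633), with all 4 cerebrum libraries above all 4 of cerebellum. The call held without any 1 library, at adjusted p-values from 0.00015 to 0.024. Pfkp had all cerebrum libraries above cerebellum too, by 0.27 ± 0.11, and missed the threshold (edgeR adjusted p = 0.0948), although DESeq2 called it. Slc2a1 (-0.14 ± 0.14), Hk1 (0.23 ± 0.12), Aldoa (0.23 ± 0.16), Pgk1 (0.06 ± 0.16), Pgam1 (0.06 ± 0.11), Eno2 (0.00 ± 0.13) and Pkm (-0.22 ± 0.13) did not pass. Without cerebellum wild type 4, its only female, Aldoa and Hk1 were called as well. The median over the 11 rows was 0.06 against -0.03 over all genes.

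Of 18 further glycolysis genes measured, 3 were higher and 4 lower in wild type cerebrum, beside 16.4% higher and 14.1% lower over all genes. Aldoc, another aldolase, had 698 ± 151 CPM in cerebrum and 1534 ± 197 CPM in cerebellum. The log2 fold change was -1.11 ± 0.17 (edgeR adjusted p = 0.00064). Hk2, the hexokinase of muscle and tumours, had 4.75 ± 0.55 against 9.84 ± 1.89 CPM (-1.05 ± 0.21, edgeR adjusted p = 0.00333). Pfkl, the liver-type phosphofructokinase, was higher by 0.68 ± 0.14 (edgeR adjusted p = 0.00347), and Pfkm, the muscle type, lower by -0.41 ± 0.12 (edgeR adjusted p = 0.0223, which 3 of the 8 single-library omissions ended). Hkdc1, a hexokinase-like gene, had 11.7 ± 7.07 against 1.81 ± 0.55 CPM (edgeR adjusted p = 0.00036). At the exit of the pathway, the pyruvate dehydrogenase kinase genes went opposite ways: Pdk1 was higher in cerebrum by 1.23 ± 0.12 (edgeR adjusted p = 3.4e-05) and Pdk2 lower by -0.94 ± 0.11 (edgeR adjusted p = 0.000136). Pdp1, a pyruvate dehydrogenase phosphatase, was higher by 1.68 ± 0.21, and Slc16a7, the neuronal monocarboxylate transporter MCT2, by 1.31 ± 0.22. Of the citric acid cycle genes 1 of 19 passed, Idh3g, and was lower in cerebrum. Microglia markers were higher in cerebrum (8 of 9) and 6 of 10 oligodendrocyte markers lower. Of 10 astrocyte markers, 1 was higher and 4 were lower in cerebrum. Their sum, however, was 5019 to 7005 CPM in cerebrum and 3809 to 4254 CPM in cerebellum. Of 8 excitatory neuron markers, 7 were higher in cerebrum. The part of these markers in the values was not tested.

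Ratios of isoenzyme counts within a library do not depend on scaling, and they are not corrected for gene length. Between wild type tissues the log2 ratio of Ldhb to Ldha differed by -1.12 (cerebrum minus cerebellum), that of Aldoc to Aldoa by -1.32, that of Hk2 to Hk1 by -1.23 and that of Pfkm to Pfkp by -0.70. For each of these the libraries did not overlap (two-sided exact permutation test, p = 0.0286, the smallest that 4 against 4 allows; adjusted p = 0.05 over 7 pairs, which equals the threshold and does not go under it). Pfkl to Pfkp and Slc2a3 to Slc2a1 had an adjusted p of 0.0667 and Eno1 to Eno2 of 0.6 in the same exact test.

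By genotype the ratios hold members and are described only. The ratio of Ldhb to Ldha in cerebrum at P42 was 3.10, 2.15, 4.12 and 3.40 in mutants and 1.55, 1.51, 1.68 and 2.37 in wild types. In cerebellum it was 4.74, 7.87, 4.22 and 9.08 in mutants and 3.65, 3.48, 4.61 and 3.51 in wild types, and in cerebrum at P75 2.26, 2.30, 2.0 and 1.83 against 1.84, 1.69, 1.76 and 1.75. In each comparison 3 of 4 mutants lay above all wild types. Ldhb itself was higher in all mutants of cerebrum at P42 (0.29 ± 0.11), overlapped in cerebellum (0.21 ± 0.19) and was lower in all mutants at P75 (-0.16 ± 0.06). For Eno1 to Eno2, 3 of 4 mutants lay below all wild types in each comparison. The log2 ratio differed there by -0.17 in cerebrum at P42, -0.21 in cerebellum and -0.16 at P75. Aldoc to Aldoa was above all wild types in 4 of 4 mutants of cerebrum at P42 and at P75, and not in cerebellum, where the ratio was 1.38 ± 0.17 in mutants and 1.39 ± 0.09 in wild types (SD, n = 4).

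**Figure D4:**
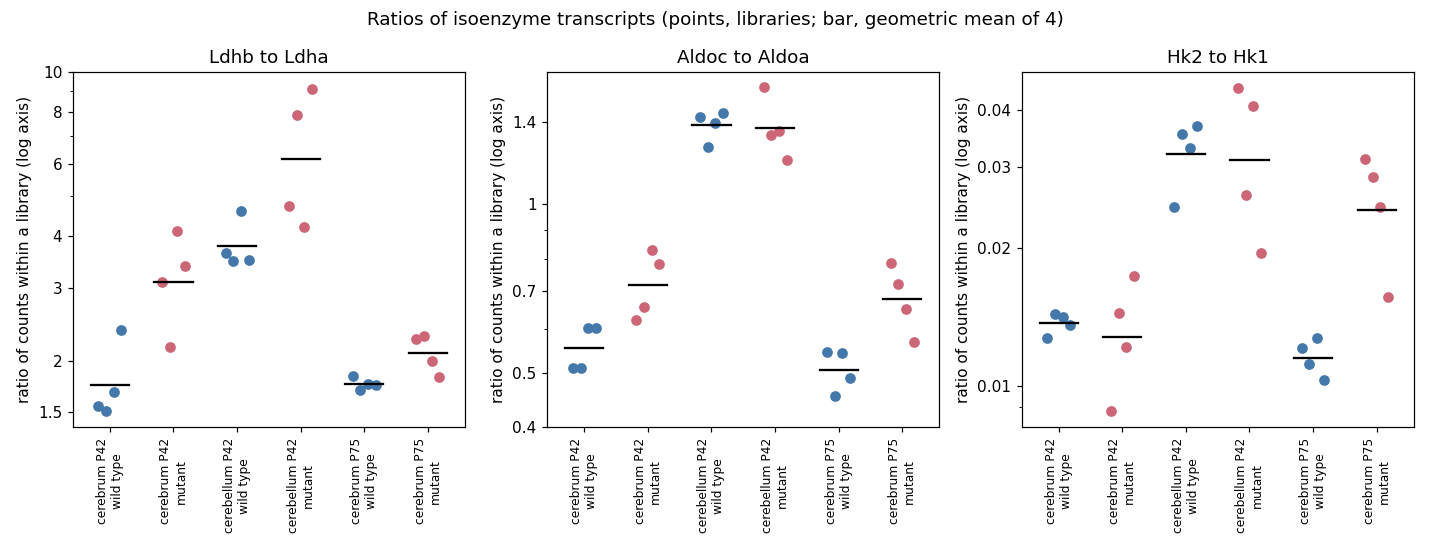
Ratio of counts of 2 isoenzymes within each library (y axis, logarithmic) by group for lactate dehydrogenase, aldolase and hexokinase, with the geometric mean of 4 as a bar. Cerebellum is above wild type cerebrum in all 3 ratios, and Hk2 to Hk1 is 0.0156 to 0.0313 in P75 mutants against 0.0103 to 0.0127 in P75 wild types.

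The rest of the pathway was tested by genotype, as the rule that chose the 10 genes did not name its genes. These lists were still drawn up with earlier results of these data known, so their p-values are no independent test. At P42 edgeR called none of 18 other glycolysis genes and none of 9 other hexose transporters in either tissue, and neither did DESeq2. At an unadjusted p under 0.05 were 4 and 0 of them in cerebrum and 2 and 1 in cerebellum. Over all genes 2299 of 18205 were in cerebrum and 819 of 17616 in cerebellum, so nothing is read from these counts. In cerebrum at P75, 1 of 18 other glycolysis genes rose and 1 fell, where 14.3% of all genes passed, so the count says nothing particular about the list. Hk2 had 9.46, 9.28, 8.28 and 5.24 CPM in mutants and 4.35, 3.67, 4.58 and 3.68 CPM in wild types. All mutants were higher and the log2 fold change was 0.98 ± 0.20 (edgeR adjusted p = 0.00498) or 1.98-fold. The ratio of Hk2 to Hk1 counts was 0.0250 ± 0.0068 in these mutants and 0.0116 ± 0.0010 in wild types (SD, n = 4). Eno1, the ubiquitous enolase, had 558, 593, 626 and 641 CPM in mutants and 774, 748, 772 and 790 CPM in wild types, with no overlap and a log2 fold change of -0.35 ± 0.07 (edgeR adjusted p = 0.0033). Gpi1 (-0.23 ± 0.08, edgeR adjusted p = 0.0756), Tpi1 (-0.25 ± 0.08, edgeR adjusted p = 0.0581) and Ldhb (-0.16 ± 0.06, edgeR adjusted p = 0.0999), which fill steps or isoenzymes beside the 10 genes, missed the threshold by edgeR and passed it by DESeq2.

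Among 9 other hexose transporters at P75, Slc2a3, the neuronal glucose transporter, fell by 0.30 ± 0.08 on the log2 scale (edgeR adjusted p = 0.0196), and Slc2a6 fell by 0.33 ± 0.10 (edgeR adjusted p = 0.0441). Slc2a9, a urate and hexose transporter, rose from 1.14 ± 0.36 to 2.76 ± 1.22 CPM (edgeR adjusted p = 0.029). Of 18 genes of lactate and pyruvate fate, Slc16a7 fell by 0.48 ± 0.13 (edgeR adjusted p = 0.0212) and the kinase gene Pdk3 by 0.35 ± 0.10 (edgeR adjusted p = 0.0252). In the citric acid cycle 4 of 19 genes fell and none rose, beside 6.62% lower and 7.66% higher over all genes: Fh1 (-0.35 ± 0.08), Ogdh (-0.24 ± 0.06), Mdh1 (-0.22 ± 0.07) and Idh3a (-0.22 ± 0.07). Of 15 regulators of glycolysis only Trp53, the p53 gene, passed and rose by 0.56 ± 0.11 (edgeR adjusted p = 0.00447), while Hif1a, Myc and the Pfkfb genes did not pass. Of 12 hypoxia-induced genes that are not glycolytic, Vegfa (0.30 ± 0.08) and Ddit4 (0.62 ± 0.19) rose and P4ha1 (-0.35 ± 0.08) fell. DESeq2 did not call Ddit4 and called Bnip3. It also called 7 of the 19 citric acid cycle genes and 4 of the 18 genes of lactate and pyruvate fate. In the pentose phosphate pathway 0 of 7 passed by edgeR or DESeq2 and 1 had an unadjusted p under 0.05. Over all genes 5053 of 17523 had such a p. Of 11 genes of gluconeogenesis and glycogen 1 rose, Pck2, the mitochondrial phosphoenolpyruvate carboxykinase (0.49 ± 0.10, edgeR adjusted p = 0.00634). When each of the 8 libraries was left out in turn, 6 of the 16 pathway genes called at P75 kept the call throughout: Eno1, Hk2, Fh1, P4ha1, Pck2 and Trp53. With library size scaling 9 of the 16 kept it, and Slc2a3, Slc2a6, Pdk3, P4ha1, Ogdh, Mdh1 and Idh3a lost it. At P42 edgeR called no gene of the lists in this paragraph, and DESeq2 called P4ha1 in cerebrum. At an unadjusted p under 0.05 in P42 cerebrum were 6 of 11 genes of gluconeogenesis and glycogen and 0 of 19 of the citric acid cycle. Over all genes 2299 of 18205 were.

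The genes whose 6 group means were most like those of Ldha were sought among 13963 genes, by the root mean square difference of log2 CPM after centring each gene on its own mean. They were Mgll, a monoacylglycerol lipase, at 0.083, Ptn, a secreted growth factor, at 0.096, Rcor2 at 0.10, Lzts3 at 0.11 and P4ha1, a collagen prolyl hydroxylase subunit, at 0.11. The means of the 2 ages come from tables scaled separately, so the likeness rests partly on levels that were not tested between ages.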

How the data were processed

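PolyA-enriched RNA was sequenced in 24 libraries, 6 groups of 4. The deposited values are raw counts per gene, made by the authors; HISAT2, DESeq2 and mm10 are named in the submitters' processing notes, while the sources used here do not name the counting tool or the annotation release. Library totals of 13832721 to 23175864 counts set the precision of low genes.

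The genes and lists were chosen with earlier results of these data known. Low genes were removed with filterByExpr, libraries were scaled by TMM, and each comparison was fitted on its own groups with the quasi-likelihood F test of edgeR 4.0.16 in R 4.3.3, with sex as a covariate at P42. P-values were adjusted over all genes by the Benjamini-Hochberg method, with a threshold of 0.05, and SE was the absolute log2 fold change divided by the root of F. The tables of P42 and P75 were scaled separately, so age was tested only through the interaction fit; the search for genes like Ldha used means of both. Genes named were the 10 genes, fixed partner isoenzymes and, per list, the 4 smallest p-values among those called. Isoenzyme ratios were tested by exact permutation. The fitting code was run on simulated counts with known changes and no shifts in tissue makeup, and no result above rests on that run. Alternatives were DESeq2 1.42.0, other scalings and filters, no sex term, a replicate block and leaving out each library. Promoter sequences came from RefSeq tables (Python 3.11.15), which matched 18 of 19 genes looked up. The authors' own comparison tables were not used here.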

Additional observations from a re-analysis of the deposited data

Results flagged for a closer look

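Of 120 sets of 4 libraries checked (a gene in a group), 6 had 1 library far from the other 3, with a gap to the nearest library above Dixon's 95% critical value when divided by the whole range. Chance flags about 1 in 20 such sets. In wild type cerebrum at P75, replicate 2 was low for Hk1 (328 against 356 CPM for the nearest, a gap of 0.890 of the range) and for Aldoa (1363 against 1524 CPM, 0.884), and replicate 3 was high for Gapdh (84.0 against 11.6 CPM, 0.994). In mutant cerebellum, replicate 4 was high for Aldoa (1276 against 1005 CPM, 0.848) and for Gapdh (110 against 14.4 CPM, 0.982). In wild type cerebrum at P42, replicate 3 was high for Slc2a3 (179 against 161 CPM, 0.890).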

How the results depend on the processing

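No called value changed sign under any alternative run. Calls of the 11 rows between genotypes describe how counts move and are no test of the genes. Of the 11 rows, 1 was called in cerebrum at P42 without the low-count filter (Ldha), 1 at P75 with library size scaling (Ldha), 2 between wild type tissues with DESeq2 and 2 without the sex term (Ldha and Pfkp), and 1 in the age interaction with DESeq2 (Pgam1) and 1 without the filter (Gapdh). Leaving out each library in turn gave 2 to 6 rows called at P75, 1 to 3 between tissues, 0 to 1 in the age interaction, and 0 to 5 isoenzyme pairs at an adjusted p of 0.05 or less. The 0 came without wild type cerebellum replicate 3. In this exact test an adjusted p of 0.05 needs several of the 7 pairs at the smallest p, so the count can fall to 0 at once. The cause of the other shifts was not tested. Counts over all genes moved in cerebrum at P42 from 3 to 233 with DESeq2, 1312 without the filter, 8 with the replicate block and 0 with library size scaling, the strict filter or no sex term. In cerebellum they moved from 2 to 41 with DESeq2, 153 without the filter, 1 without the sex term or with the block, and 210 without mutants 2 and 4, where the median of the 11 rows moved from -0.01 to -0.18. In the tissue interaction they moved from 0 to 8 with DESeq2 and 279 without the filter, and in the age interaction from 263 to 670, 1176 and 132 (without P42 mutants 3 and 4). Library size scaling shifted the median of all genes between tissues to -0.15, with 3500 of 5924 calls lower in cerebrum against 2529 of 5472, and that of the 11 rows to -0.06. Replicate numbers were not used as pairs in the main fits. In the P42 comparisons not every library correlated best with its own number. At P75 each mutant did, with correlations of deviations of 0.041 to 0.19. Whether the P75 libraries are paired is not given by the labels and cannot be told from these correlations. With the replicate block, P75 calls went from 2502 to 3537 and from 4 to 6 of the 11 rows. Of gene values under the alternatives, 2592 kept their side of the threshold or, with no test, stayed within the spread, 98 lost the call, 39 gained it and 16 values with no test moved beyond the spread. Depth limits low genes such as Hkdc1, Slc2a9 and the second Aldoa row.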
